A study of Rattus norvegicus with 24 samples.

Results

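The CpG islands at the distal ends of the rat autosomes were examined in mammary tissue. An island was counted as belonging to a chromosome end when its probes started within 3 Mb of the last probe on chr1 to chr20 of the rn4 assembly, taking only the end with the highest coordinates. By this rule 3479 of the 93024 non-control probes of the array were end probes, and the other 85924 probes of the same chromosomes served for comparison. Probes at most 1000 bp apart were joined into runs, called islands here, which gave 506 end islands out of 14445 in all.

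Genomic DNA of 24 female Sprague-Dawley rat tissues was measured on 1 array each, a dual-color microarray of CpG island probes 45 to 60 bp long. There were 3 normal mammary glands of non-irradiated rats, 7 carcinomas of rats given whole-body gamma rays (2 Gy) at 3 weeks of age, before puberty (IR-3W), 7 carcinomas of rats given the same dose at 7 weeks, after puberty (IR-7W), and 7 spontaneous carcinomas of non-irradiated rats. The study set out to compare tumors by age at exposure, with the glands as a baseline. All rats, those that gave the normal glands included, were fed a diet high in corn oil as adults. The 21 tumors came from 19 rats, since 2 rats gave 2 tumors each (IR-3W 6 and 7, IR-7W 1 and 2). Methylated DNA fragments, pulled down with a protein domain that binds methyl-CpG, were labelled with Cy5, and total DNA from the same tissue was labelled with Cy3. The methylation level below is the log2 ratio of Cy5 over Cy3, centered on the median of the array, so that a level of 0 is the typical probe of that array and a shift shared by all probes is removed. On this scale the mean level was higher in the tumors than in the glands at 15 of the 20 ends. Probes over 20 Mb from the last probe were also higher on 20 of 20 chromosomes (pooled means 0.29 and 0.20), so the rise was not particular to the ends. The study described a loss across all probes on its own score. A shared shift is removed here, so these values cannot be set against that loss. With another background correction, normexp, the mean level was higher in the tumors at 7 of the 20 ends. The sign of the difference turned at 10 ends and stayed at 10. No gene annotation of the probes was used here, so the labelled tissue was not checked by marker genes.

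CpG islands are stretches of DNA rich in the dinucleotide CpG that often overlap promoters. Most are unmethylated in normal tissue, and in carcinomas some become methylated while methylation outside islands tends to be lost. The distal end of a chromosome lies beside the telomere, and subtelomeric DNA of mammals is often rich in genes and GC. Many rat chromosomes carry their centromere close to the low-coordinate end, so that the distal end is then the end of the long arm. Distances here run from the last probe and not from the telomere, which the array does not reach.

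Between 89.7% and 99.1% of the probes of an array were well above background in Cy3 and between 73.0% and 95.6% in Cy5, and the number of arrays limits the precision. The tumor IR-3W 1 stood apart, with an SD of 2.29 over the end probes against at most 1.72 in any other tumor and 1.56 in any gland. Its SD over the other probes of the same chromosomes was 2.18, against at most 1.60. The arrays lay on 12 slides scanned on 6 days, and the 3 normal glands were scanned on the same day as 1 tumor, Spontaneous 3. Spontaneous 3 shared its slide with normal gland 2.

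The ends were denser in islands than the rest of the same chromosomes. They held 58.0 probes and 8.43 islands per Mb, against 34.8 probes and 5.40 islands per Mb elsewhere, and 13 of the 20 ends were denser in probes than the rest of their own chromosome. The density ran from 1.67 probes per Mb on chr16 to 158 on chr10, and the 6 ends with most probes (chr10, chr7, chr5, chr11, chr3 and chr12) held 2228 of the 3479. The islands themselves were of much the same make, with a median of 6 probes at the ends and 6 elsewhere, and a mean probe length of 47.5 bp against 47.6 bp.

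End probes had a higher mean level than the other probes on every array when all chromosomes were pooled. The study's own score grouped probes by melting temperature, and the level used here does not. The part of probe sequence in differences between regions was not tested. This limit holds wherever ends, islands or classes of probes are called more or less methylated than others. The difference between the mean level of end probes and that of the other probes was 0.16, 0.11 and 0.16 in the 3 glands, and the lowest, median and highest of the 21 tumors were 0.13, 0.18 and 0.30. The highest tumor was IR-3W 1. In the glands, 21.8% of end probes had a mean level of at least 1, which is 2 times the enrichment of the median probe, against 18.2% of the other probes, and in the tumors the shares were 27.3% and 21.8%. By mean level, 251 end probes reached 1 in the tumors but not in the glands and 59 did the opposite. The most heavily methylated class, 2 or more in the glands, held 13.7% of end probes and 11.5% of the others, and the least methylated class, under -0.5, held 25.5% and 29.1%.

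This excess did not hold within chromosomes in the glands. When each end was set against the rest of its own chromosome and the 20 differences were averaged, the glands gave 0.0065, 0.015 and -0.013, with 10 of the 20 ends above their chromosome in each gland. The tumors gave -0.024, 0.057 and 0.12 at the lowest, median and highest, and 20 of 21 tumors lay above all 3 glands. The exception was IR-3W 1. In each tumor 10 to 15 of the 20 ends lay above the rest of their chromosome. The low-coordinate ends, 2457 probes within 3 Mb of the first probe, also lay above the rest in the pooled data, by 0.10 to 0.15 in the glands and 0.06 to 0.17 in the tumors, so a higher pooled level was measured at both ends.

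**Figure D1:**
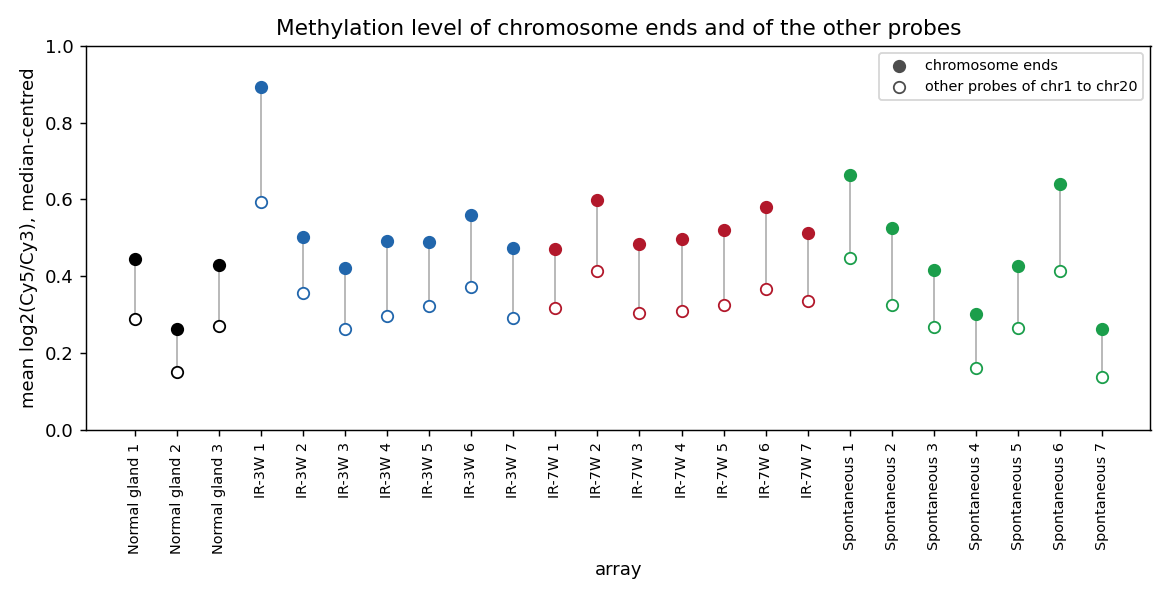
Mean methylation level (median-centered log2 ratio of Cy5 over Cy3) of the 3479 end probes (filled) and the 85924 other probes of chr1 to chr20 (open) on each of the 24 arrays, colored by group. The filled point lies above the open one on every array, by 0.11 to 0.16 in the glands and 0.13 to 0.30 in the tumors.

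The pooled tumor excess over the glands was small. The end-minus-rest difference averaged 0.14 ± 0.03 (SD, n = 3) in the glands and 0.18 ± 0.04 (SD, n = 21) in the tumors, and 15 of 21 tumors lay above all glands. The tumor-gland difference in this measure, 0.041, was 0.0025 when the background was corrected with normexp instead of by subtraction. No p is given for it, since it is a score over the chosen probes.

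The level did not climb steadily towards the tip. In the glands the mean level was 0.30 in the last 0.5 Mb, 0.30 between 0.5 and 1 Mb, 0.28 between 1 and 2 Mb and 0.62 between 2 and 3 Mb. Beyond the 3 Mb limit it was 0.41 from 3 to 5 Mb, 0.44 from 5 to 10 Mb and 0.36 from 10 to 20 Mb, and 0.20 past 20 Mb, where 70554 probes lie. A pooled level above that past 20 Mb was therefore measured far beyond the last 3 Mb. The bands pool chromosomes in unlike numbers of probes, and gland levels were not set against the rest of each chromosome. The band from 0.5 to 1 Mb had the widest gap between tumors and glands, with a mean of 0.30 in the glands and 0.58 in the tumors, and 19 of 21 tumors above all glands. In that band 19.8% of probes were higher and 12.1% lower in the tumors by the test described below, against 10.5% and 12.3% of all probes.

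That gap lay mainly on chr7, as a division by chromosome made after the values were seen showed. Of the 642 probes of the band, 189 were on chr7, where the mean was 0.48 in the glands and 1.32 in the tumors. Without chr7 the remaining 453 probes gave 0.22 and 0.28, a difference of 0.054. Over the 14 chromosomes with probes in the band the median difference was 0.043, and 10 of them were higher in the tumors.

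**Figure D2:**
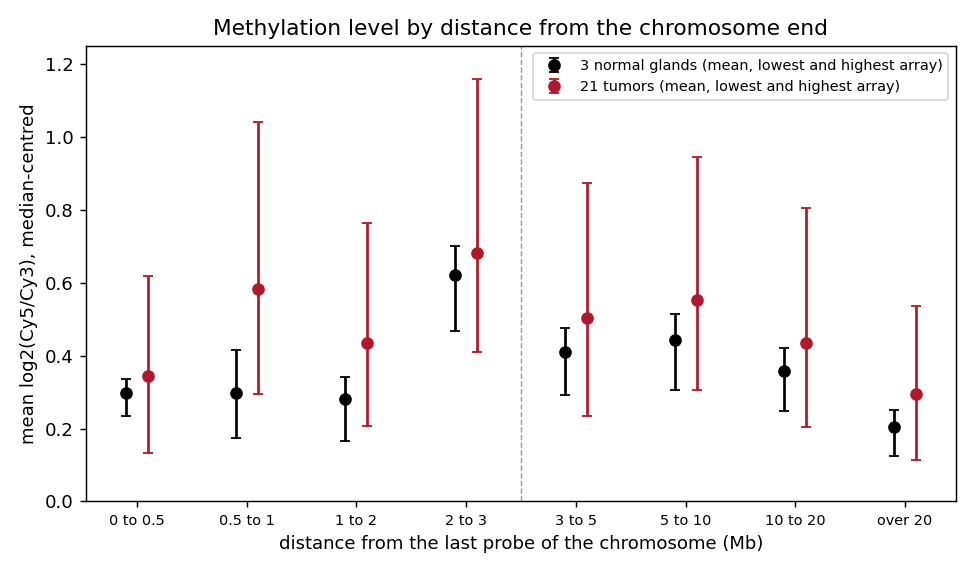
Mean methylation level by distance from the last probe of the chromosome (Mb), for the 3 normal glands (black) and the 21 tumors (red), with bars from the lowest to the highest array; the dashed line marks 3 Mb. The widest gap lies between 0.5 and 1 Mb, where the means are 0.30 and 0.58, and the level beyond 20 Mb is 0.20 in the glands.

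The 20 ends differed widely from one another. In the glands the highest level was that of the chr12 end, at 1.20 ± 0.18 (SD, n = 3). Next came chr19 at 0.83 ± 0.14 and chr7 at 0.54 ± 0.22. The individual glands did not overlap between chr12 (at least 0.998) and chr19 (at most 0.936), while chr7, chr5 (0.48 ± 0.14) and chr17 (0.47 ± 0.15) did not differ beyond their spread. The lowest levels were those of chr14 at -0.28 ± 0.08, chr16 at -0.28 ± 0.32, with 5 probes only, and chr2 at -0.13 ± 0.07. Against the rest of the same chromosome, the end of chr12 was higher by 0.72 in the glands and 0.61 in the tumors, and the end of chr14 was lower by 0.50 and 0.60.

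Tumors and normal glands were compared end by end, each end being 1 value per array, in a limma fit over all 776 windows of 3 Mb with at least 10 probes. Of the 20 ends, 18 had enough probes to be tested (not chr16 and chr18). At an adjusted p under 0.05, 6 of the 18 were higher in the tumors, those of chr1, chr6, chr7, chr15, chr17 and chr20, and 0 were lower. Over all windows 18.8% were called, 14.2% higher and 4.64% lower. Without normal gland 2, 1 end passed (2.45% of all windows did), and without normal gland 3, 2 ends (5.67% of all windows), so the counts fell across the genome. In bulk tissue a change of methylation within cells and a change in the mixture of cell types cannot be told apart, and this holds for every tumor-gland difference given here.

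The end of chr15 (chr15:106349239-109297831, 108 probes in 16 islands) gave the smallest p. Its level was 0.13, 0.0062 and 0.070 in the glands and 0.23, 0.50 and 0.82 at the lowest, median and highest of the tumors. All 21 tumors lay above all 3 glands, which held for 1 of the 18 ends and for 4.38% of all windows, while 0 ends and 1.29% of windows had all tumors below. The difference was 0.42 ± 0.08 (SE, limma adjusted p = 0.00153).

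At the end of chr7 (chr7:139493888-142436410, 444 probes in 72 islands) the glands read 0.77, 0.33 and 0.53 and the tumors 0.64, 1.01 and 1.66 (lowest, median, highest). The highest tumor was IR-3W 1, and 19 of 21 tumors lay above all glands. The difference was 0.47 ± 0.13 (SE, limma adjusted p = 0.0117).

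The end of chr6 (chr6:144793451-147555238, 53 probes) had 0.28 at the tumor median against -0.055, -0.086 and -0.14 in the glands, with a tumor range of -0.076 to 0.55. Only 1 tumor lay within the range of the glands, and the difference was 0.37 ± 0.09 (SE, limma adjusted p = 0.0078). The end of chr20 (chr20:52448659-54908347, 32 probes) had 0.72 at the tumor median against 0.14, -0.14 and 0.029 in the glands, with a tumor range of -0.096 to 1.20 and a difference of 0.64 ± 0.16 (SE, limma adjusted p = 0.0082). Here the single tumor among the glands was IR-3W 1, the same tumor that was highest on chr7.

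The ends of chr17 (chr17:93945040-96758243, 80 probes) and chr1 (chr1:264874536-267495925, 208 probes) were higher by 0.30 ± 0.09 (SE, limma adjusted p = 0.0238) and 0.26 ± 0.09 (SE, limma adjusted p = 0.0391). On chr17 the glands read 0.44, 0.34 and 0.63 against a tumor median of 0.75, and on chr1 they read 0.26, 0.079 and 0.23 against a tumor median of 0.47. On chr17 19 tumors and on chr1 18 tumors lay above all glands, so the groups overlapped by few samples. Among the 12 tested ends that did not pass, the differences ran from -0.047 on chr9 to 0.095 on chr13. The heavily methylated ends of chr12 and chr19 were among them, at -0.018 ± 0.16 and -0.045 ± 0.09 (SE).

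Against the shift of the rest of their own chromosomes, 8 of the 20 ends moved further up in the tumors and the other 12 did not. The end of chr6 stood at -0.291 relative to the rest of its chromosome in the glands and at -0.00937 in the tumors, and that of chr20 at -0.54 and 0.040. The end of chr15 stood at -0.078 and 0.25, and that of chr7, already the higher in the glands, at 0.15 and 0.55.

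**Figure D3:**
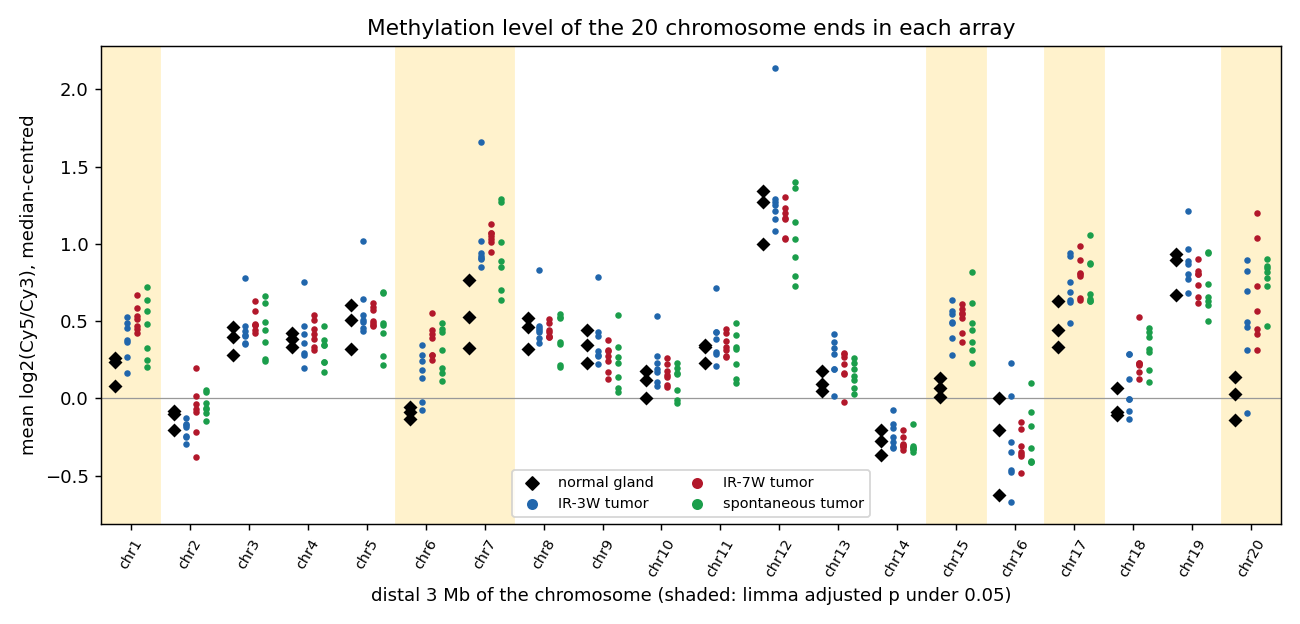
Mean methylation level of each of the 20 chromosome ends on each array, with normal glands as black diamonds and the 3 tumor groups as colored points; shaded ends passed limma at an adjusted p under 0.05. The 6 shaded ends (chr1, chr6, chr7, chr15, chr17, chr20) lie higher in the tumors, and the isolated high blue point on chr7 and chr12 is IR-3W 1.

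The calls on whole ends depended on the background correction and could be examined within the scan day of the glands only through 1 tumor. With the rebuilt LogOdds described below, 6 ends passed, all higher, against 36.1% of all windows. With normexp 0 of the 18 ends passed, against 4.38% of all windows, and the difference was 0.11 on chr15, 0.095 on chr7, 0.067 on chr6, 0.22 on chr20, 0.014 on chr1 and -0.0091 on chr17. Within the day, Spontaneous 3 lay above the mean of the 3 glands at all 6 called ends, by 0.013 on chr1, 0.16 on chr15, 0.205 on chr17, 0.21 on chr6, 0.31 on chr7 and 0.46 on chr20. It also did so at 6 of the other 14 ends. The sign at the called ends is partly fixed, since the same 4 arrays entered the fit that called them, and on chr1 Spontaneous 3 (0.205) lay below glands 1 and 3. With slide or scan day as a fixed block, which leaves the comparison to Spontaneous 3 and the glands that share its batch, 0 ends and 0 of all 776 windows passed.

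The unenriched DNA in Cy3, which reads copy number, was fitted in the same way. No end passed, and 0 of 776 windows were called by limma (0% in all) and 1.29% had an unadjusted p under 0.05 against 0 of the 18 ends. The smallest unadjusted p of an end was 0.282 (limma), on chr19. The Cy3 level of the end of chr7 lay between -0.18 and 0.18 in the tumors and between -0.0945 and 0.051 in the glands, relative to the gland mean. Among the called ends the range was widest on chr20, at -0.46 to 0.46 in the tumors and -0.294 to 0.192 in the glands. A test of group means does not show a copy number change in a single tumor.

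Probe by probe, 871 of the 3479 end probes (25.0%) differed between tumors and glands at an adjusted p under 0.05, against 22.8% of all 93024 probes. Of these, 423 (12.2%) were higher and 448 (12.9%) lower, against 10.5% and 12.3% of all probes. By a LogOdds rebuilt from these arrays, which is not the study's own score, 997 end probes passed (28.7%, against 27.6% of all probes), and 977 of them were higher and 20 lower. By island the same score gave 129 (25.5%, against 26.6% of all islands), with 129 higher and 0 lower. The balance of directions thus changed with the scale. The gains by the rebuilt LogOdds go against the general loss over all probes that the study described. The rebuilt score therefore does not stand in for the study's own. All 21 tumors lay above all 3 glands at 113 end probes (3.25%, against 2.91% of all probes) and below them at 231 (6.64%, against 6.95%). By island, 123 of 506 end islands passed (24.3%, against 22.9%), 59 higher and 64 lower, against 10.6% and 12.3% of all islands, and all tumors were above all glands at 12 (2.37%, against 2.97%) and below at 28 (5.53%, against 6.08%). These shares lay near those of all probes and islands throughout. Without normal gland 2, 364 end probes (10.5%, against 10.4% of all) and 44 end islands (8.7%, against 8.75%) passed. Without normal gland 3 the counts were 386 (11.1%, against 10.5%) and 54 (10.7%, against 10.4%). With slide as a fixed block 1 end probe (0.0287%, against 0.0183% of all) and 0 end islands (0% of all) passed, and with scan day 28 (0.805%, against 0.74% of all probes) and 4 (0.791%, against 0.27% of all islands). The median tumor-gland difference was 0.08 over end probes and 0.06 over all probes.

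The balance between gains and losses differed from end to end. At the ends of chr6, chr7, chr15, chr17 and chr20 between 21.4% and 26.4% of probes were higher, and at chr7 and chr20 only 4.05% and 3.12% were lower. On chr7, 16 of 72 islands were higher and 3 lower, and on chr15, 6 of 16 were higher and 3 lower. The end of chr4 showed the opposite, with 3.51% of its probes higher and 20.2% lower, and that of chr3 had 6 islands higher and 12 lower out of 51. The mean level of the chr1 end rose although more of its probes were lower (17.8%) than higher (12.5%).

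**Figure D4:**
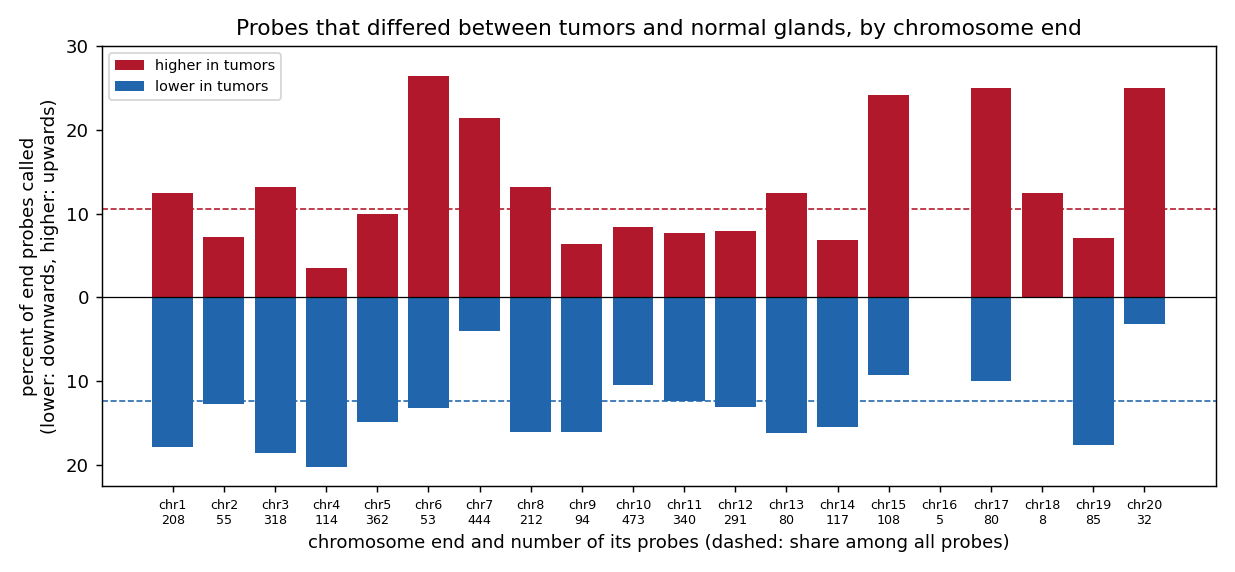
Percent of the probes of each chromosome end that differed between the 21 tumors and the 3 glands (limma, adjusted p under 0.05), higher upwards in red and lower downwards in blue, with the number of probes under each end; dashed lines are the shares among all probes, 10.5% and 12.3%. The ends of chr6, chr7, chr15, chr17 and chr20 have between 21.4% and 26.4% of probes higher.

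Single end probes were then picked for large differences, which by this choice exceed the averages over ends. The 20 probes described next were taken as the 10 largest differences in each direction among end probes with all 21 tumors beyond all 3 glands, 1 per island in each direction and at most 2 islands per chromosome. The fact that their groups do not overlap is therefore part of the choice. The 10 higher probes differed by 1.63 to 2.72. The means of their whole islands differed by 0.059 to 1.95 and passed in 9 of the 10.

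The largest difference under background subtraction was on chr6, in an island of 9 probes (chr6:146168488-146169197), 1.39 Mb from the last probe. Its probe A_45_P05698137 read -1.01, -1.93 and -1.24 in the glands and -0.55, 1.39 and 2.63 at the lowest, median and highest of the tumors. The glands lay below the typical probe of the array and the tumor median well above it. The difference was 2.72 ± 0.49 (SE, limma adjusted p = 0.000461), all 9 probes of the island were higher in the tumors, and the island mean differed by 1.95 ± 0.325 (SE). This probe was above background in Cy5 in 2 of 3 glands and 17 of 21 tumors, and in Cy3 in 16 of the 24 arrays. With normexp its difference was 0.76, below the 1.30 of A_45_P03292141 on chr3, so its size and rank depended on the background correction.

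The end of chr7 held a pair of these islands, 0.57 and 0.74 Mb from the last probe. A_45_P06399939 in the island chr7:141865064-141865822 read 0.46, 0.14 and 0.58 in the glands, and the tumors ran from 1.29 through a median of 2.33 to 3.47. The gap between the highest gland and the lowest tumor was the clearest of the 10, and the difference was 1.94 ± 0.32 (SE, limma adjusted p = 0.000269), with 5 of 6 probes higher. A_45_P21219319 in the 14-probe island chr7:141698919-141701090 read -0.81, -1.05 and -2.56 in the glands against a tumor median of 1.12, and 9 of its 14 probes were higher. It was above background in Cy5 in 1 of 3 glands and 18 of 21 tumors.

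On chr5, A_45_P04981406 (chr5:172489824-172489869) read -0.067, -0.51 and -0.0060 in the glands and 0.17, 1.88 and 3.24 in the tumors (lowest, median, highest), with all 5 probes of its island higher. On chr3, A_45_P03292141 (chr3:170304529-170304573) read 0.54, -0.16 and 0.066 in the glands and 0.72, 2.15 and 4.03 in the tumors, with all 4 probes of its island higher. Both were above background in both channels on every array. The second island on chr3 (A_45_P03288224, difference 1.97) had 2 of 6 probes higher, the islands on chr15 (A_45_P10413707, 2.31, and A_45_P25101915, 1.63) had 3 of 6 and 3 of 11, and the 21-probe island on chr1 (A_45_P16219279, 1.78) had 8. In Cy5, A_45_P10413707 was above background in 2 of 3 glands, and A_45_P16219279 in 2 of 3 glands and 16 of 21 tumors. With normexp the differences of these 2 probes were 0.77 and 0.62.

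The 10 lower probes differed by 1.23 to 1.51, sizes under those of the higher probes with background subtraction but not with normexp, and the island mean passed in 5 of the 10. A_45_P01261604 on chr1, 0.096 Mb from the last probe (chr1:267399492-267399536), read 0.13, 0.38 and 0.45 in the glands and -2.13, -1.10 and -0.36 in the tumors (lowest, median, highest). It fell by 1.51 ± 0.35 (SE, limma adjusted p = 0.00324), with 3 of 11 probes of its island lower, and its difference was -0.37 with normexp. It was above background in Cy5 in 11 of 21 tumors and in all 3 glands. The probes of chr11 near 2.8 Mb, A_45_P08631335 and A_45_P08630961, fell by 1.49 and 1.47, from gland levels of 0.92 to 1.68, and 4 of 8 and 3 of 9 probes of their islands were lower. In the latter island 2 probes were higher and the island mean did not pass (limma adjusted p = 0.0797). The island with most of its probes lower was chr1:265882096-265883767, where A_45_P16218501 fell by 1.23 and 10 of 11 probes were lower while 1 was higher, with an island mean lower by 0.77 ± 0.13 (SE, limma adjusted p = 0.000328). The other lower probes lay on chr5, chr8, chr9, chr10, chr13 and chr14.

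One island of the chr5 end (chr5:170798388-170799426, 8 probes) held a named probe of each direction, starting at 170798429 and 170798777. A_45_P04971775 rose by 1.82 ± 0.27 (SE, limma adjusted p = 0.000158), from -1.02, -3.08 and -1.65 in the glands to a tumor median of -0.11. A_45_P04971777 fell by 1.26 ± 0.28 (SE, limma adjusted p = 0.00207), from 0.13, 0.70 and 0.23 to a tumor median of -0.83. The former was above background in Cy5 in 2 of 3 glands and the latter in 14 of 21 tumors, and with normexp the differences were 0.41 and -0.39. The 3 probes nearest the far side of the island differed by 0.035 or less, and the island mean by 0.059 ± 0.09 (SE), which did not pass (limma adjusted p = 0.744). The probe and its island mean also differed on chr14, where A_45_P09898700 fell by 1.47 and its island mean differed by 0.012.

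With normexp the differences of all 20 probes kept their sign, at 0.41 to 1.30 for the higher probes and from -0.371 to -1.36 for the lower ones. All 10 higher and 9 of the 10 lower probes were smaller than with background subtraction, the exception being A_45_P08190641 on chr10 (-1.34 and -1.36). The tumor scanned with the glands, Spontaneous 3, differed from the gland mean by 0.88 to 3.57 over the 10 higher probes and by -0.86 to -1.42 over the 10 lower ones. Its direction is fixed by the choice of the probes. The sizes are shaped by that choice too, since this tumor and the same glands entered the fit.

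**Figure D5:**
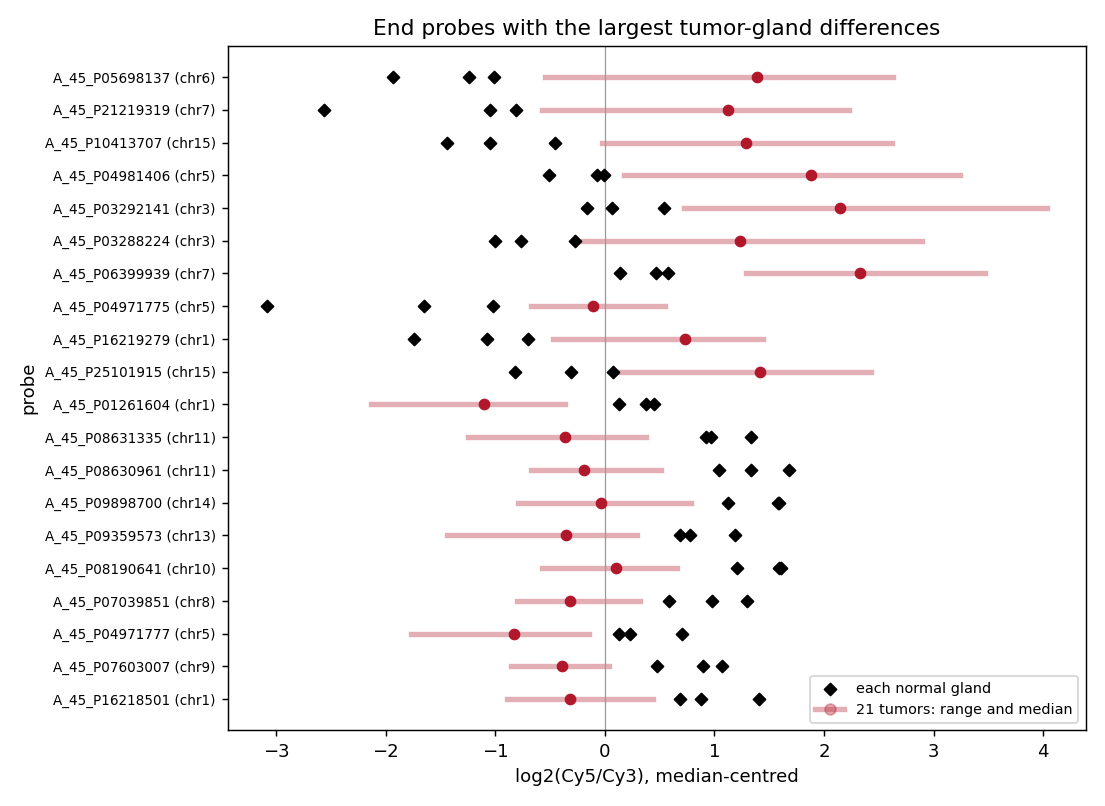
Median-centered log2 ratio of the 20 named end probes, with each normal gland as a black diamond and the range and median of the 21 tumors in red. The upper 10 probes lie higher in all tumors, by 1.63 to 2.72 on average, and the lower 10 lie lower, by 1.23 to 1.51; the non-overlap is part of how they were chosen.

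The most distal island of each end lies at the last probe. In the glands 17 of the 20 tip islands were under 1, as were 17 of the 20 islands just outside 3 Mb, while 20.9% of all end islands and 16.6% of the other islands reached 1. The median of the tips was -0.051, and the exceptions were chr3 (chr3:171052858-171052922, 2 probes), chr12 (chr12:46775365-46775411, 1 probe) and chr18 (chr18:86658995-86659574, 2 probes). The tip of chr3 read 3.66, 2.69 and 4.05 in the glands and the tumors had a median of 3.36. Tumor-gland differences at the tips ran from -0.39 to 0.93, with 2 of 20 higher and 2 lower by the test, shares near the 10.6% and 12.3% of all islands.

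The tip of chr20 (chr20:54906809-54908347, 13 probes) gained, from 0.31, -0.065 and 0.70 in the glands to a tumor median of 1.20, by 0.93 ± 0.31 (SE, limma adjusted p = 0.0317), and the tip of chr11 gained by 0.54 ± 0.19 (SE, limma adjusted p = 0.0378). The tip of chr1 (chr1:267494623-267495925, 11 probes) read 0.0053, 0.088 and -0.10 in the glands and -0.57, -0.28 and -0.17 in the tumors (lowest, median, highest). All 21 tumors lay below all glands, and the difference was -0.30 ± 0.07 (SE, limma adjusted p = 0.00386). The tip of chr19 fell by 0.39 ± 0.09 (SE, limma adjusted p = 0.00266), with 20 of 21 tumors below all glands.

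The islands nearest the 3 Mb limit spanned much the same levels on both sides. The last islands inside it lay 2.08 to 2.99 Mb from the last probe, except on chr16, whose only end island is its tip, and chr18 (0.83 Mb). These 20 islands had a median of -0.072 in the glands and a range of -0.74 to 3.64, and the 20 just outside, between 3.02 and 4.64 Mb, had a median of 0.0033 and a range of -1.30 to 3.20.

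The highest and lowest islands of the ends marked the ends of the scale. The 3 most methylated end islands in the glands, chr12:44103614-44103856, chr7:140627654-140628150 and chr8:127001297-127001855, stood at gland levels from 3.15 to 4.29, and their tumor-gland differences were -0.095, -0.080 and -0.037. In each of the 3 islands IR-3W 1 was the highest tumor (6.15 to 6.31) and Spontaneous 7 the lowest (2.61 to 2.68). The same tumors had the widest and the narrowest spread over all end probes, with an SD of 2.29 and 1.17. Of the 3 least methylated, chr12:45380520-45380900 stood at -1.11, -1.44 and -1.26 in the glands and at a tumor median of -1.05. In chr5:172684031-172684656 the glands read -1.02, -1.13 and -1.43 and the tumor median was -0.78, and in chr11:85063808-85064389 they read -0.90, -1.35 and -1.26 with a tumor median of -0.68. These islands were chosen by their gland levels, which a comparison with the glands would use again, so no test is given.

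The end islands that varied most over the tumors were chr7:141763878-141764448 (SD 0.97), chr10:107940700-107941047 (SD 0.92) and chr10:109604704-109605333 (SD 0.91), against a median SD of 0.25 over end islands of at least 3 probes and 0.24 over other islands. On chr7 the tumors ran from 0.038 to 4.03, both extremes being IR-3W tumors (2 and 1). On chr10 the tumor IR-7W 6 was the highest of all in the former island, at 3.61, and the lowest of all in the latter, at 0.30.

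The tumor groups were then compared with each other. The study reported the IR-7W tumors as mostly estrogen receptor positive and the IR-3W tumors as negative. Age at exposure and receptor status therefore cannot be told apart between these groups. Between IR-7W and IR-3W, 0 of the 3479 end probes passed limma's adjusted test, as did 0 of all 93024 probes (0%). An unadjusted p under 0.05 was seen for 302 end probes (8.68%, against 6.49% of all) and 55 end islands (10.9%, against 7.72%). No end island passed the adjusted test (0% of all), and the rebuilt LogOdds gave 12 end probes (0.345%, against 0.218% of all). No end passed, whereas 0.644% of all windows did, and 2 of 18 ends had an unadjusted p under 0.05 (limma), against 10.7% of windows. These were chr6, at 0.37 in IR-7W and 0.15 in IR-3W (limma adjusted p = 0.175), and chr1, at 0.52 and 0.38 (limma adjusted p = 0.394).

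The end probes with the smallest p between IR-7W and IR-3W included A_45_P05698141, at 1.13 in IR-7W and -0.050 in IR-3W (limma adjusted p = 0.109). It lies in the chr6 island of A_45_P05698137, whose gain was the largest with background subtraction but not with normexp. At the very tip of chr7, A_45_P21223300 (chr7:142435515-142435559) had 2.43 in IR-7W and 0.86 in IR-3W (limma adjusted p = 0.143). In the other direction, A_45_P08190991 on chr10 had 0.24 in IR-7W and 1.80 in IR-3W, with an adjusted p of 0.158 from limma. None of these passed.

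Between IR-3W and spontaneous tumors 0 end probes passed limma's adjusted test (0.0086% of all probes did), with 416 (12.0%) at an unadjusted p under 0.05 against 10.2% of all. By island 0 passed (0.00692% of all) and 62 (12.3%) had an unadjusted p under 0.05, against 10.2%. By window 0 of 18 ends passed (0% of all) and 1 had an unadjusted p under 0.05 (12.0% of windows), that of chr2. Its level was -0.205 in IR-3W and -0.045 in the spontaneous tumors (limma adjusted p = 0.249). The end probes with the smallest p included A_45_P03289441 on chr3, at -0.17 in IR-3W and 0.59 in the spontaneous tumors (limma adjusted p = 0.319).

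Between IR-7W and spontaneous tumors 0 end probes passed limma's adjusted test (0% of all), and 146 (4.20%) had an unadjusted p under 0.05 against 3.93% of all. The same held for 20 of 506 islands (3.95%, against 3.70%) and 0 of 18 ends (2.58% of windows), and no island or end passed the adjusted test (0% of all). A_45_P07031253 on chr8 had the smallest p. Its level was -1.76 in IR-7W tumors and -0.79 in spontaneous ones, with an adjusted p of 0.912 from limma, and it was above background in Cy5 in 5 of 21 tumors. IR-3W and IR-7W share the spontaneous tumors as their comparison here, and a p that missed the threshold does not show that the groups were alike.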

How the data were processed

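The authors deposited 1 scanner file per array, whose spot intensity values had been background-subtracted and dye-normalized with Agilent Feature Extraction 10.7.3.1 (per the submitters' processing notes), with a lowess step in 0 arrays. Deposited log10 ratios matched those recomputed from both processed channels within 0.001 at 97.9% to 99.6% of probes, and the series matrix, with deposited log2 ratios, was tried as another source. Here log2(Cy5/Cy3) was taken from the processed channels and centered on the array median, leaving out control spots and outlier flags (0 to 35 spots per array). Arrays correlated at 0.755 to 0.956 and none was a copy.

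Probes, 3-Mb windows of at least 10 probes and islands (runs with gaps of at most 1000 bp) were each fitted by limma 3.58.1 (R 4.3.3) over the arrays compared, two-sided, with Benjamini-Hochberg adjustment over all 93024 probes, 776 windows or 14445 islands. Python 3.11.15, numpy 2.4.6 and pandas 2.3.3 were used for counts. On simulated data with 200 probes changed by 4 SD, limma found 185 in the tumor-gland design (15 calls were false) and 193 in the age design (9 were false).

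The members, lists and tests were chosen with earlier results of these data known. Named were all 20 ends, the 10 largest tumor-gland differences in each direction among end islands with non-overlapping groups, the end probes of smallest p in each pair of tumor groups (3 in each direction, of which some are printed), the 3 highest, lowest and most variable end islands and the tips. The alternatives were other values, background, centering, scale, filter, blocks, end widths and measures, and each array left out. The LogOdds was rebuilt with a 2-mode mixture per array, without the study's grouping by melting temperature, so it differs from the study's. The methods' t-test was run on it at a p under 0.001 for tumors against glands, without the minimum difference the study set for its tumor-specific candidates. For each pair of tumor groups it was run at a p under 0.005 with a difference over 3, which the study used between ages. Normexp used an offset of 50 on median signals. Tumors of the same rat are not independent, and p-values measure the spread between these samples. Gene annotation and sequence of rn4 were not used here, so islands are given by coordinates alone.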

Additional observations from a re-analysis of the deposited data

Results flagged for a closer look

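In 195 groups of 7 tumors, 16 had a tumor far from the other 6 by Dixon's test at the 95% level, and chance flags about 1 in 20 groups. IR-3W 1 accounted for 9 of the 16. Its end probes had a mean level of 0.892, against 0.42 to 0.559 in the other IR-3W tumors, and lay 0.299 above the rest of the chromosomes, against 0.145 to 0.195. The mean difference within chromosomes went the other way, at -0.0239 against 0.0249 to 0.0601. Its ends stood high on chr3 (0.78), chr5 (1.02), chr7 (1.66), chr8 (0.832), chr9 (0.784) and chr12 (2.14). The spread of this array was also the widest over the other probes of the autosomes, with an SD of 2.18.

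Spontaneous 3 was low on chr20 (0.47, against 0.728 to 0.905) and in the mean difference within chromosomes (0.0372, against 0.0832 to 0.117). It had the lowest share of probes above background in Cy5 (73.0%) and was scanned with the glands; the part of either in these values was not tested. Spontaneous 1 was high on chr14 (-0.169, against -0.346 to -0.31), and the Cy3 level of that end was high in Spontaneous 5 (0.0835, against -0.0395 to 0.000274). IR-7W 3 was low on chr13 (-0.0234), IR-7W 6 was high on chr18 (0.524, from 8 probes), and IR-7W 2 was low at A_45_P16219279 (-0.363, against 0.728 to 1.33). This probe was above background in Cy5 in only 16 of the 21 tumors.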

How the results depend on the processing

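Of 115 values under alternatives other than a left-out array, 99 kept to within 1.5 times the main count (or 1 SD) and 16 moved. A reversal could be scored only for the end-minus-rest difference, which kept its sign throughout. For the counts only totals were compared, not the balance of higher and lower. Most counts between tumor groups were 0 in both settings. For tumors against glands, 871 end probes were called. The count was 1 with slide (0.0287%, against 0.0183% of all probes) and 28 with scan day as a fixed block (0.805%, against 0.74%). It was 377 of 1345 probes for ends of 1 Mb and 1413 of 5887 for ends of 5 Mb (both shares above the 22.8% of all probes). The methods' t-test gave 475 at an unadjusted p under 0.001 (13.7%, against 12.6% of all probes). At a Benjamini-Hochberg adjusted p under 0.05 instead, the same t-test gave 971 end probes and 25237 of all 93024 probes. The 123 islands went to 0 (0% of all) and 4 (0.791%, against 0.27%) with the slide and day blocks. The 6 ends went to 0 with normexp (4.38% of all windows passed), with the slide block and with the day block (0% each), and to 3 for ends of 1 Mb, 2 higher and 1 lower (20.4% of all windows of that width). The fixed blocks leave few arrays in the comparison by construction, since 1 tumor shares a day with the glands; for the others the cause was not tested. The end-minus-rest difference between tumors and glands (0.041) was 0.0025 with normexp. Between ages, 0 end probes became 12 with the rebuilt LogOdds (0.345%, against 0.218% of all) and 47 with the methods' t-test (1.35%, against 0.728%; 0 after adjustment). Between IR-3W and spontaneous tumors, 0 became 2 with the day block (0.0575%, against 0.0785%) and 10 with the methods' t-test (0.287%, against 0.267%).

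Leaving out each array gave 364 to 911 end probes, 44 to 137 islands, 1 to 6 ends and a difference of 0.026 to 0.049. The low values came without normal gland 2 (364 probes, 44 islands, 1 end) and without normal gland 3 (386, 54 and 2), and leaving out any other array kept these counts within 1.5 times. Between ages, 5 end probes passed without IR-7W 7 (0.144%, against 0.0881% of all) and 0 without any other tumor. Replicate numbers did not pair the samples, since correlations of same-numbered deviations ran from -0.266 to 0.498, and with the replicate block 763 end probes (21.9%, against 20.5%), 107 islands (21.1%, against 20.6%) and 6 ends (33.3%, against 24.1%) passed. No end probe passed between tumor groups with it. Signal over background limits dim probes, since Cy5 was above background at 75.7% to 94.1% of end probes in the tumors.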
